A study of Mus musculus with 34 samples.

Results

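Tumour cells carry surface and secreted proteins that restrain immune cells, and 10 such genes were followed in 3 mouse colorectal cancer cell lines treated with the BRAF inhibitor encorafenib. The genes were given by name as immune checkpoint ligands and regulators and were found by symbol in the annotation, and all 10 were among the 14107 genes of the count table. They are Cd274 and Pdcd1lg2, which encode the PD-1 ligands PD-L1 and PD-L2, Havcr2, which encodes TIM-3, Lgals9 and Ceacam1, which encode the TIM-3 ligands galectin-9 and CEACAM1, Pvr and Nectin2, which encode ligands of TIGIT and DNAM-1, Cd47, C4bp and Mr1. Encorafenib lowered Pdcd1lg2 and Havcr2 and raised Lgals9 and Nectin2 in all 6 comparisons of line and day, while Cd274 and Pvr fell in some of the comparisons and Ceacam1 and Cd47 rose in some and fell in others.

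Each of the lines (NaJa-D, NaJa-F, NaJa-G) was grown from the peritoneal lavage of a single recipient mouse of transplanted colon organoids, so each line stands for 1 recipient. Every group, controls included, had the C57BL/6N strain background and the genotype VillinCreERT2::BrafV600E/+::Trp53R172H::APCdel, in which a tamoxifen-inducible Cre under the Villin promoter of gut epithelium acts on the Braf, Trp53 and Apc alleles. Cells received 0.5 µM encorafenib or the solvent DMSO and were harvested for RNA after 1 or 5 days. Line, treatment and day divided the 34 libraries into 12 groups, with 3 libraries in 10 groups and 2 in NaJa-F encorafenib day 5 and in NaJa-G DMSO day 5.

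Checkpoint receptors on T cells, NK cells and macrophages receive inhibitory signals from ligands on neighbouring cells. PD-L1 and PD-L2 bind PD-1, which dampens signalling from the T cell receptor. TIM-3 is best known from exhausted T cells and from myeloid cells, and PVR and nectin-2 are shared between the inhibitory receptor TIGIT and the activating receptor DNAM-1. CD47 binds SIRP-alpha on macrophages and inhibits engulfment, C4b-binding protein restrains the classical complement pathway, and MR1 presents microbial metabolites to MAIT cells. In epithelial tumours, transcription of the PD-1 ligands responds to interferon gamma and to growth factor signalling.

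Total counts per library ranged from 46007050 to 80121299. All 9 colon epithelial markers examined were in the table, with summed levels of 2614 to 9581 CPM (the counts-per-million scale, with TMM factors). Most of this sum was Krt8, Krt18, Krt19 and Cdh1. Group means were 0.351 to 13.5 CPM for Vil1, 1.10 to 21.1 CPM for Krt20 and 1.29 to 56.5 CPM for Cdx2, each lowest in a treated NaJa-G group. Mean Epcam was 1111 CPM in NaJa-D DMSO day 1 and 90.2 CPM in NaJa-G DMSO day 1. None of 7 leukocyte, T and NK cell markers (Ptprc and Cd3e among them) and none of 3 B cell markers had a row, in a table where each gene exceeded 1 CPM in at least 2 libraries. Of 9 macrophage and dendritic cell markers, Csf1r, Cd68 and Mrc1 were present, with a summed level of 4.10 to 18.4 CPM, while Adgre1 and Itgam had no row. This sum was highest in NaJa-G DMSO day 1 (16.0 to 18.4 CPM) and was 6.90 to 7.36 CPM in NaJa-G encorafenib day 1. The markers did not move together between these groups. Mean Mrc1 went from 12.6 to 0.562 CPM, while Csf1r went from 0.161 to 1.31 CPM and Cd68 from 4.34 to 5.205 CPM. The part of these markers in the results on Havcr2 and Pdcd1lg2 was not tested. The fibroblast markers (4 of 6 present) summed in NaJa-G to 51.2 to 70.5 CPM (DMSO day 1), 13.9 to 16.6 CPM (DMSO day 5) and 85.1 to 119.5 CPM (encorafenib, both days), against 1.24 to 7.54 CPM in the other 2 lines, and their part in the NaJa-G results was not tested. The mesothelial markers (3 of 5 present, Wt1 absent) summed to 497 to 1514 CPM in DMSO groups and 1002 to 3520 CPM in encorafenib groups. Nearly all of this sum was Msln (group means of 530 to 3148 CPM), as Upk3b and Lrrn4 reached at most 6.40 and 3.65 CPM in any library. The part of the mesothelial markers in the results was likewise not tested. Of 3 endothelial markers only Kdr was present, at 0.164 to 1.36 CPM. In bulk RNA, fewer cells of a type and less RNA per cell cannot be told apart. The ERK target genes Etv4 and Spry4 fell in all 6 encorafenib comparisons, most in NaJa-G day 1 (log2 fold changes of -3.64 for both), and Dusp6 fell in 4. The labels of 1 library conflict, as NaJa-D DMSO day 1 replicate 3, so named by its title, has NaJa-G in its cell line field. Across genes it correlated at 0.993 with its own group and at no more than 0.915 with those of NaJa-G, it was kept under its title, and the results that rest on it are also given without it. NaJa-D encorafenib day 1 replicate 3 differed most from its replicates, with a variance 86.6 times counting noise, beside 3.32 times for the closest pair of the series. No source states that replicates were separate cultures, so p-values measure the spread between these samples.

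Of the 10 genes, 4 were called in the same direction in all 6 encorafenib comparisons, and the 250 bases before their starts are shown so that the letters near them can be compared. The sequences come from the RefSeq promoter table of GRCm38.p6, read in the direction of the gene from the RefSeq start, with matches to 4 motifs in capitals. The motifs, searched on both strands, were AP-1 (TGANTCA), the core of the interferon response element ISRE (GAAA, any 2 bases, then GAAA), GAS (TTCNNNGAA) and ETS (CCGGAA). A member of the AP-1 family or an ETS factor is a common end point of ERK signalling, and ISRE and GAS are bound after interferon.
Pdcd1lg2, chr19:29410669-29410918, plus strand: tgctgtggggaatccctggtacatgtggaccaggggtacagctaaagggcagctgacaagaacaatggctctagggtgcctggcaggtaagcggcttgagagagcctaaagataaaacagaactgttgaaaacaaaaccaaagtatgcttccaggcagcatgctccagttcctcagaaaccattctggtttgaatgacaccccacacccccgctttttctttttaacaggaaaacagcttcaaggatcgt
Havcr2, chr11:46454681-46454930, plus strand: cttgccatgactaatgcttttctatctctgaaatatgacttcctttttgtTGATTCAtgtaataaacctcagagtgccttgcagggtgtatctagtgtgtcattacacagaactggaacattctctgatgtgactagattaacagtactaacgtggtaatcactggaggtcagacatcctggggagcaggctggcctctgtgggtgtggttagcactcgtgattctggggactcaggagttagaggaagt
Lgals9, chr11:78984925-78985174, minus strand: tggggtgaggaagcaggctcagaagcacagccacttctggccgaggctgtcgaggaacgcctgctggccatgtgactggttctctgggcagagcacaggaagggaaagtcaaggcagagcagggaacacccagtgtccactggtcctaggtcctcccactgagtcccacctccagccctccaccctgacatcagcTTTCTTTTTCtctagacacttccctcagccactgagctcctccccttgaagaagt
Nectin2, chr7:19749574-19749823, minus strand: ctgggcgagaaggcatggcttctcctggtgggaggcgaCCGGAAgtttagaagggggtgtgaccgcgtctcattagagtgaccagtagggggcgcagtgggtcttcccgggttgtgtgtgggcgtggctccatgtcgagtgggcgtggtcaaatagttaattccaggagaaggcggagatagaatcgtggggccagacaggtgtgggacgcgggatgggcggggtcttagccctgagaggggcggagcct
The Havcr2 window held 1 AP-1 match, from 200 to 194 bases before the start, and 6.75% of the 32851 promoter windows in the table held one. The Lgals9 window held 1 ISRE core on the reverse strand, from 55 to 46 bases before the start (2.98% of windows), and the Nectin2 window held 1 ETS match (12% of windows). None of the 4 motifs was found in the Pdcd1lg2 window, and GAS, found in 7.02% of windows, was in none of the windows of the 9 genes matched, which are all but Pvr. Cd47 held 1 ETS match, and the windows of Cd274, Ceacam1, C4bp and Mr1 held no match. The RefSeq starts of Nectin2, Lgals9, Cd47 and C4bp lie inside their GENCODE genes, so these windows overlap the genes. The Cd47 gene spans 49800533 to 49915010 on chromosome 16, and its first window begins at 49855404. A match of letters is a description and not a binding site.

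Cd274 (chromosome 19, 29367455 to 29388095, plus strand) and Pdcd1lg2 (29410919 to 29471161) are neighbours, 22824 bases apart in GENCODE M21 on GRCm38. Pvr (19903578 to 19921160), Nectin2 (19716644 to 19750483) and Ceacam1 (25461707 to 25477603) lie on the minus strand of chromosome 7. Exons of Cd274 and Nectin2 overlap a gene on the opposite strand, and the use of strand in counting was not stated, so reads from the partners cannot be told apart. Ceacam1 has the close paralogue Ceacam2, and its counts are uncertain to the extent that reads were shared between them.

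A call required an adjusted p (Benjamini-Hochberg, over all genes) below 0.01 in limma. In NaJa-D day 1, 3 of the 10 genes were higher and 3 lower with encorafenib, where 23.7% and 21.2% of all genes were. In NaJa-D day 5, 2 were higher and 4 lower (18.3% and 14.7% of all genes). In NaJa-F, 4 were higher and 3 lower at day 1 (17.5% and 12%), and 3 were higher and 2 lower at day 5 (9.70% and 8.50%). In NaJa-G, 6 were higher and 4 lower at day 1 (35.3% and 28.7%), and 5 were higher and 3 lower at day 5 (28.5% and 24.7%). Of the 5 higher at day 5, C4bp and Mr1 are in the table only through their level in that group, so their part of the count was fixed by the filter on low values. The median absolute log2 fold change of the 10 genes was 1.10 in NaJa-G day 1 and 0.52 in NaJa-D day 5, beside 0.47 and 0.23 over all genes.

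**Figure D1:**
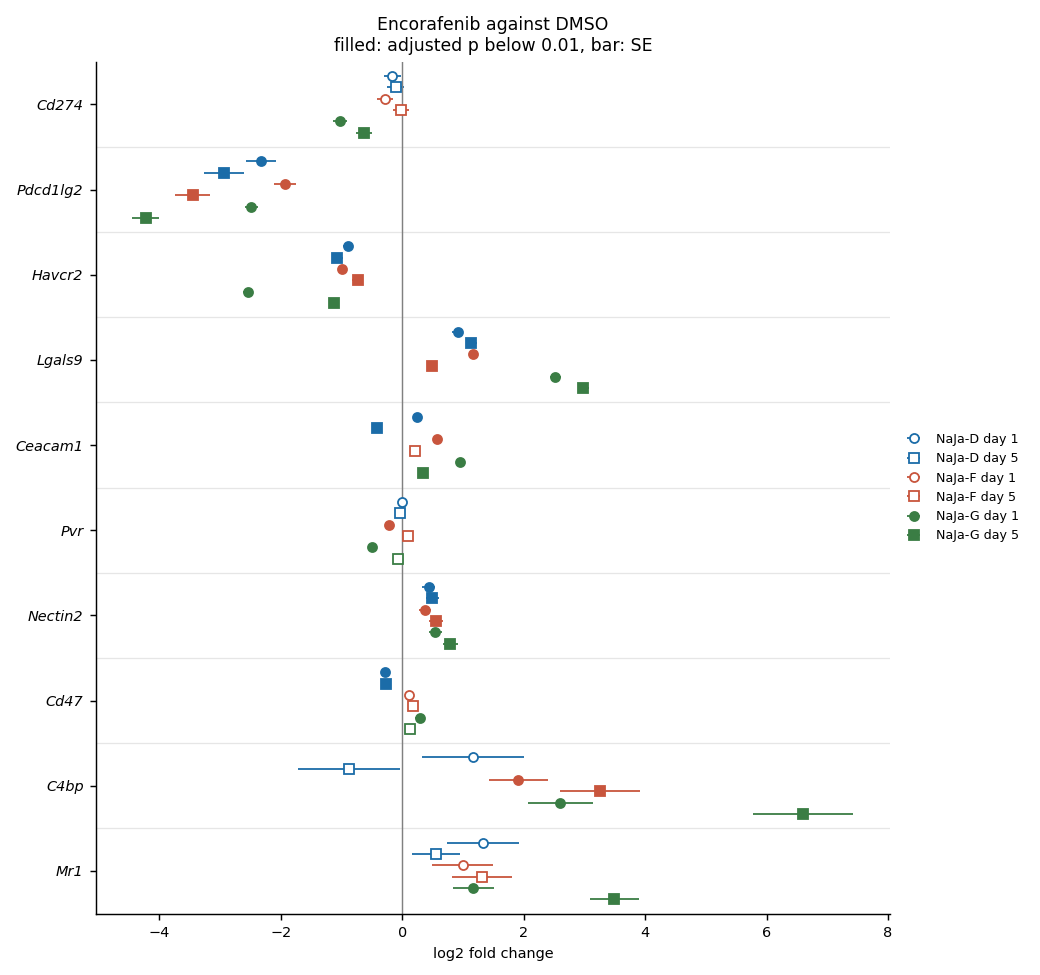
Log2 fold change of encorafenib against DMSO (x axis) for the 10 genes (y axis) in each line and day, with bars of 1 SE and filled symbols for an adjusted p below 0.01. Pdcd1lg2 and Havcr2 lie left of 0 and Lgals9 and Nectin2 right of 0 in all 6 comparisons, and C4bp reached 6.60 in NaJa-G day 5, where its symbol and that of Mr1 are descriptions.

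The deepest fall of the 10 genes in any of the 6 comparisons was that of Pdcd1lg2 in NaJa-G day 5. In NaJa-G day 1 its level was 20.2, 19.4 and 20.2 CPM in DMSO and 3.77, 3.62 and 3.18 CPM with encorafenib. In NaJa-G day 5 it was 8.43 and 8.51 CPM in DMSO and 0.422, 0.499 and 0.420 CPM with encorafenib. Every treated library was below every control of its day, and Pdcd1lg2 fell by 2.49 ± 0.11 (SE) on the log2 scale at day 1 (adjusted p = 4.35e-18) and by 4.23 ± 0.22 at day 5 (adjusted p = 9.41e-16), the latter 18.8-fold lower. In NaJa-F day 1 it was 3.88, 3.53 and 3.29 CPM in DMSO and 0.960, 0.824 and 1.01 CPM with encorafenib. In NaJa-F day 5 it was 4.60, 3.58 and 5.04 CPM in DMSO and 0.527 and 0.292 CPM with encorafenib. The groups were again apart, with falls of 1.92 ± 0.18 (adjusted p = 1.16e-09) and 3.45 ± 0.29 (adjusted p = 1.93e-10). In NaJa-D day 1 it was 2.60, 1.92 and 2.52 CPM in DMSO and 0.376, 0.753 and 0.338 CPM with encorafenib. In NaJa-D day 5 it was 1.39, 1.45 and 1.21 CPM in DMSO and 0.142, 0.236 and 0.130 CPM with encorafenib. These groups did not overlap, and Pdcd1lg2 fell by 2.33 ± 0.25 (adjusted p = 7.80e-09) and 2.94 ± 0.33 (adjusted p = 2.12e-08). Without the NaJa-D DMSO day 1 library with the conflicting label, the day 1 value was -2.31. From the highest group, NaJa-G DMSO day 1, to the lowest, NaJa-D encorafenib day 5, mean Pdcd1lg2 CPM differed 118-fold, and 4 of the 11 neighbouring pairs of groups in that order overlapped.

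Cd274, the neighbour on chromosome 19, fell only in NaJa-G among the 6 comparisons. At day 1 it was 6.06, 6.09 and 7.45 CPM in DMSO and 2.80, 3.19 and 3.56 CPM with encorafenib, a fall of 1.03 ± 0.12 on the log2 scale (adjusted p = 5.48e-09). At day 5 it was 4.43 and 5.14 CPM in DMSO and 3.21, 3.11 and 2.97 CPM with encorafenib, a fall of 0.63 ± 0.13 (adjusted p = 1.52e-04). Treated and control libraries of NaJa-G were apart on both days, and without NaJa-G DMSO day 5 replicate 3 the day 5 value was -0.52 and was not called. In NaJa-D and NaJa-F the Cd274 log2 fold changes were -0.16, -0.11, -0.29 and -0.02 and none was called. The difference of the day 1 responses was called between NaJa-G and NaJa-D (-0.87 ± 0.18, adjusted p = 2.45e-04) and between NaJa-G and NaJa-F (-0.74 ± 0.17, adjusted p = 9.80e-04).

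Havcr2 encodes TIM-3, a receptor usually studied on lymphocytes and myeloid cells. In NaJa-G day 1 its level was 73.7, 74.1 and 75.7 CPM in DMSO and 12.8, 12.6 and 13.0 CPM with encorafenib. In NaJa-G day 5 it was 51.7 and 38.0 CPM in DMSO and 20.4, 20.2 and 20.5 CPM with encorafenib. The treated libraries of each day were close together and below all controls, and the fall was 2.55 ± 0.08 at day 1 (adjusted p = 7.99e-21) and 1.12 ± 0.08 at day 5 (adjusted p = 2.51e-12). In NaJa-D it was 37.6, 39.7 and 43.2 CPM in DMSO and 19.7, 22.1 and 22.8 CPM with encorafenib at day 1. At day 5 of NaJa-D it was 23.4, 21.9 and 21.2 CPM in DMSO and 10.2, 10.5 and 10.9 CPM with encorafenib. Havcr2 fell there by 0.90 ± 0.08 (adjusted p = 1.83e-10) and 1.07 ± 0.09 (adjusted p = 1.43e-10), and the day 1 value without the library of conflicting label was -0.88. In NaJa-F it was 46.4, 45.3 and 45.3 CPM in DMSO and 22.2, 22.3 and 24.6 CPM with encorafenib at day 1. At day 5 of NaJa-F it was 33.2, 32.5 and 30.7 CPM in DMSO and 20.2 and 18.5 CPM with encorafenib. The groups were apart in NaJa-F, with falls of 0.99 ± 0.07 (adjusted p = 1.30e-11) and 0.73 ± 0.09 (adjusted p = 2.48e-07).

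The TIM-3 ligand gene Lgals9 rose in all 6 comparisons. In NaJa-G day 1 it was 13.7, 12.1 and 11.6 CPM in DMSO and 73.9, 68.6 and 73.0 CPM with encorafenib. In NaJa-G day 5 it was 13.1 and 16.5 CPM in DMSO and 121, 115 and 114 CPM with encorafenib. All treated libraries were above all controls, and Lgals9 rose by 2.52 ± 0.08 (adjusted p = 1.62e-20) and 2.98 ± 0.09 (adjusted p = 1.55e-20) on the log2 scale, 5.75-fold and 7.90-fold. In NaJa-F it was 43.6, 45.5 and 41.9 CPM in DMSO and 100.5, 96.4 and 97.8 CPM with encorafenib at day 1. At day 5 of NaJa-F it was 46.4, 43.9 and 44.6 CPM in DMSO and 66.3 and 60.1 CPM with encorafenib. The rises in NaJa-F were 1.17 ± 0.07 (adjusted p = 1.90e-13) and 0.49 ± 0.08 (adjusted p = 2.62e-05), without overlap. In NaJa-D it was 15.2, 14.4 and 13.8 CPM in DMSO and 24.8, 25.7 and 32.3 CPM with encorafenib at day 1. At day 5 of NaJa-D it was 11.6, 13.2 and 14.2 CPM in DMSO and 28.5, 28.0 and 29.1 CPM with encorafenib. The NaJa-D groups were apart as well, with rises of 0.91 ± 0.09 (adjusted p = 3.58e-09) and 1.14 ± 0.09 (adjusted p = 3.53e-11), and 0.85 at day 1 without the library of conflicting label.

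Ceacam1, which encodes an adhesion molecule of epithelium that also binds TIM-3, took opposite directions at day 5. In NaJa-D day 5 it was 223, 216 and 196 CPM in DMSO and 165, 157 and 153 CPM with encorafenib, a fall of 0.42 ± 0.06 (adjusted p = 5.49e-07). In NaJa-G day 5 it was 155 and 136 CPM in DMSO and 183, 185 and 184 CPM with encorafenib, a rise of 0.34 ± 0.06 (adjusted p = 3.30e-05). The groups of each line were apart, and the difference of these responses was 0.76 ± 0.08 (adjusted p = 4.33e-08). At day 1 Ceacam1 rose in NaJa-G from 72.1, 83.3 and 80.5 CPM to 151, 152 and 155 CPM (0.96 ± 0.06, adjusted p = 4.89e-15). It rose in NaJa-F from 75.9, 75.3 and 77.5 CPM to 117, 115 and 109 CPM (0.57 ± 0.06, adjusted p = 1.98e-09), again without overlap of treated and control libraries. In NaJa-D day 1 the rise was 0.24 ± 0.06 (adjusted p = 7.34e-04), 0.24 also without the library of conflicting label, but 0.16 and not called without NaJa-D DMSO day 1 replicate 1. In NaJa-F day 5 the value was 0.21 ± 0.06 (adjusted p = 0.0133), which missed the threshold.

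Nectin2 and Pvr encode ligands that TIGIT and DNAM-1 share. Nectin2 rose in all 6 comparisons, by 0.43 (NaJa-D), 0.37 (NaJa-F) and 0.55 (NaJa-G) after 1 day and by 0.49, 0.56 and 0.79 after 5 days, in the same order. In NaJa-G day 5 it went from 36.9 and 47.3 CPM to 66.0, 79.9 and 72.4 CPM (± 0.12, adjusted p = 1.92e-06), and in NaJa-D day 5 from 211, 219.9 and 181 CPM to 284, 275 and 299 CPM (± 0.11, adjusted p = 4.58e-04). Treated and control libraries of Nectin2 were apart in all 6 comparisons. The calls at NaJa-D day 1 were lost without NaJa-D DMSO day 1 replicate 1 (0.34), without replicate 3, the library of conflicting label (0.39), or without encorafenib replicate 3 of that line and day (0.28). The NaJa-F day 1 call was lost without DMSO replicate 1 (0.38) or 3 (0.34) or encorafenib replicate 1 (0.37) or 2 (0.34), and the NaJa-F day 5 call without encorafenib replicate 2 (0.40). Pvr fell in NaJa-G day 1, from 82.4, 87.8 and 92.3 CPM to 63.2, 59.7 and 63.4 CPM (0.49 ± 0.06 on the log2 scale, adjusted p = 1.70e-08). Pvr also fell in NaJa-F day 1 by 0.22 ± 0.06 (adjusted p = 0.00391), a call that was lost without DMSO replicate 3 (-0.17) or encorafenib replicate 1 (-0.21) or 2 (-0.19). The other 4 values for Pvr lay between -0.06 and 0.09 and were not called.

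Cd47, the signal to SIRP-alpha on macrophages, moved by 0.28 or less on the log2 scale. It fell in NaJa-D, from 77.3, 87.2 and 94.0 CPM to 63.7, 70.8 and 77.7 CPM at day 1 (0.28 ± 0.07, adjusted p = 0.00130). At day 5 of NaJa-D it fell from 87.7, 85.0 and 75.2 CPM to 69.5, 71.4 and 65.5 CPM (0.26 ± 0.07, adjusted p = 0.00352). The day 1 groups overlapped by the lowest control and the highest treated library, and the day 5 groups did not. In NaJa-G day 1 it rose from 72.3, 70.7 and 67.0 CPM to 81.2, 84.1 and 90.8 CPM (0.28 ± 0.07, adjusted p = 7.27e-04). The other values were 0.12, 0.17 and 0.13 and were not called. The NaJa-D day 1 call was lost without DMSO replicate 3, the library of conflicting label (-0.25), or encorafenib replicate 1 (-0.21), and the day 5 call without DMSO replicate 1 (-0.22) or 2 (-0.24) or encorafenib replicate 3 (-0.23).

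C4bp and Mr1 were the faintest of the 10. Both exceeded 1 CPM in 3 of 34 libraries, all of them NaJa-G encorafenib day 5, so they entered the table through the group in which they were high, and values that involve that group are descriptions and not tests. C4bp, which encodes a chain of a complement inhibitor made mainly in liver, was 0.0167 and 0.0139 CPM in NaJa-G DMSO day 5 and 2.37, 2.14 and 2.13 CPM with encorafenib. The controls held 2 counts in all and the treated libraries 451, a ratio per total counts of 141 with an exact 95% interval of 38.9 to 1170, which covers counting error only. Its NaJa-G day 1 levels were 0.0523, 0.107 and 0.0998 CPM in DMSO and 0.497, 0.502 and 0.627 CPM with encorafenib (log2 fold change 2.60 ± 0.53, adjusted p = 8.02e-05). In NaJa-F, C4bp was called higher at day 1 (1.91 ± 0.49, adjusted p = 0.00230) and at day 5 (3.25 ± 0.66, adjusted p = 3.58e-04). The day 5 value of NaJa-F was 1.90 without DMSO replicate 1, which had no count, and 4.29 without DMSO replicate 3, and the day 1 call was lost without DMSO replicate 1 (1.75) or 3 (1.94) or encorafenib replicate 1 (1.78). In NaJa-D the summed C4bp counts were 12 against 4 at day 1 and 7 against 10 at day 5, and no difference was detectable at this depth.

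Mr1 encodes the molecule that presents vitamin B metabolites to MAIT cells. In NaJa-G day 5 it was 0.100 and 0.166 CPM in DMSO and 1.22, 1.80 and 1.72 CPM with encorafenib, a log2 fold change of 3.49 ± 0.40, given as a description with no test. Its NaJa-G day 1 levels were 0.196, 0.281 and 0.183 CPM in DMSO and 0.465, 0.542 and 0.486 CPM with encorafenib (1.17 ± 0.33, adjusted p = 0.00267). Treated libraries were above controls on both days, and the day 1 call was lost without DMSO replicate 1 (1.09) or 3 (1.07) or encorafenib replicate 2 (1.10). In NaJa-D and NaJa-F the values were 1.33, 0.56, 1.00 and 1.32, all without a call. Without the library of conflicting label the NaJa-D day 1 value was 2.07 (adjusted p = 0.0111), again not called.

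**Figure D2:**
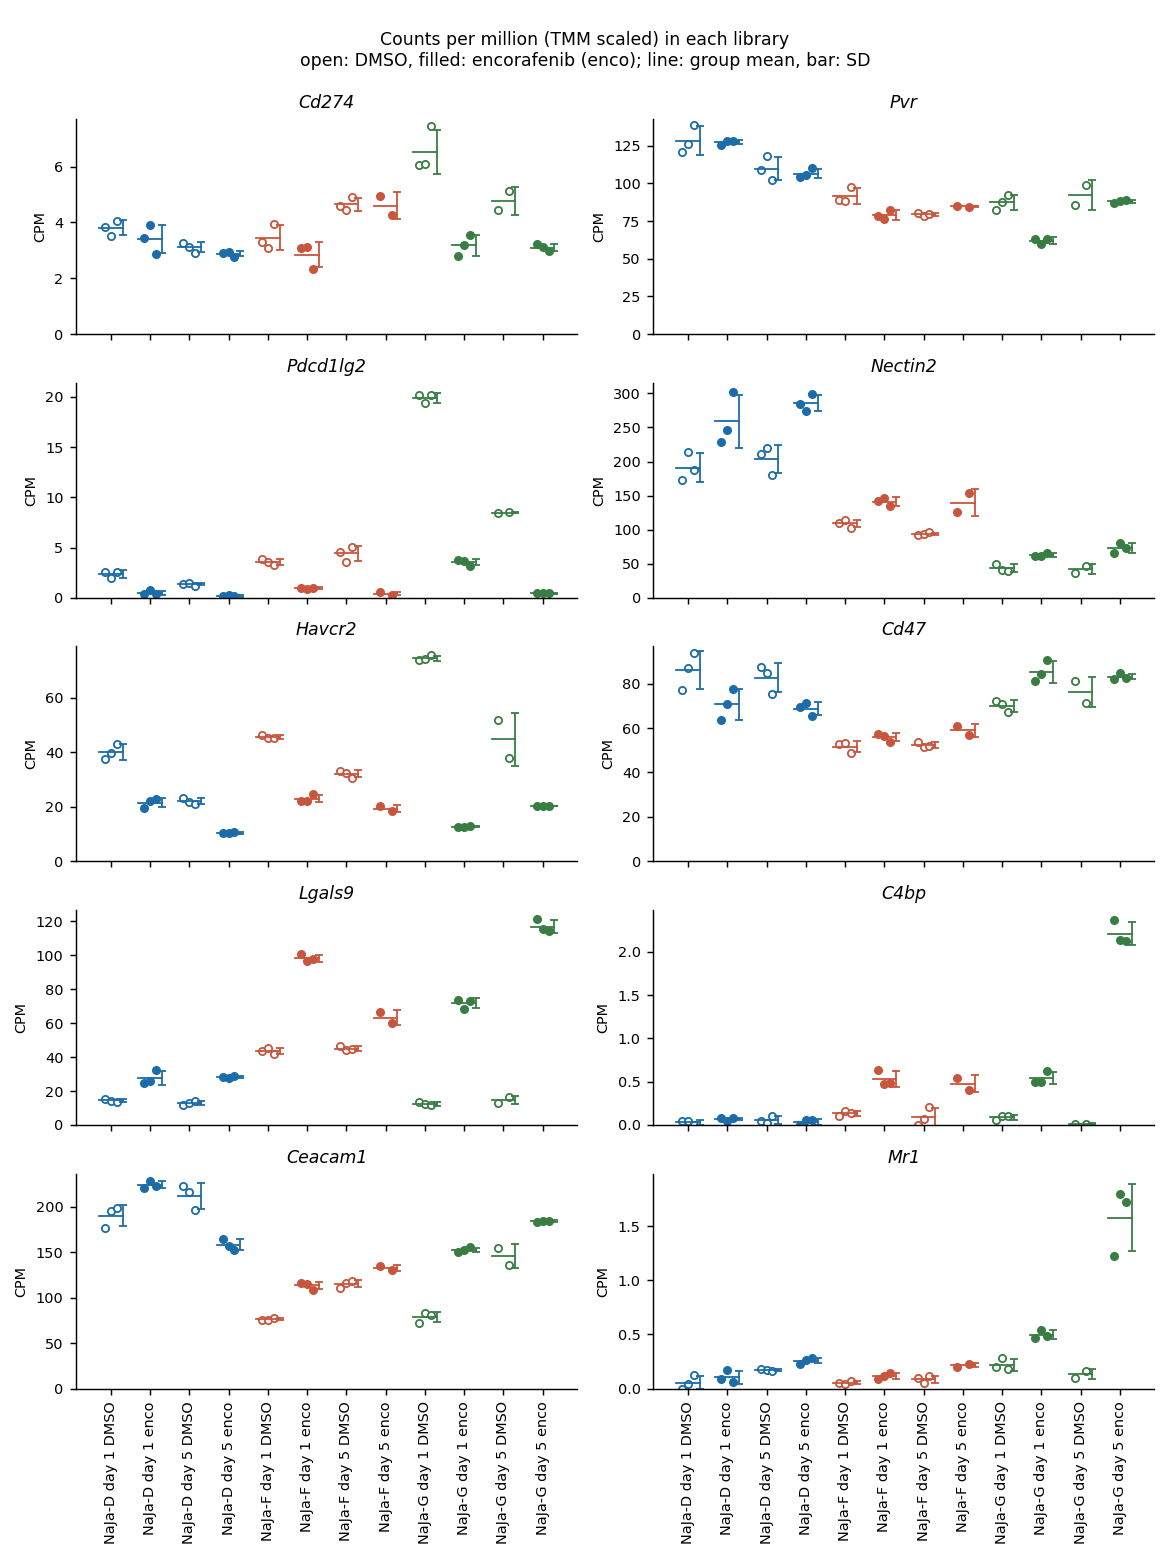
CPM scaled with TMM factors (y axis, each panel with its own linear scale from 0) for the 10 genes in all 34 libraries, grouped by line, day and treatment (x axis), with open symbols for DMSO, filled symbols for encorafenib, a line for the group mean and a bar for the SD. In NaJa-G day 1 the Pdcd1lg2 controls lie between 19.4 and 20.2 CPM and the treated libraries between 3.18 and 3.77 CPM.

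The DMSO cultures of the lines differed in these genes, as they did in most genes of the table. As CPM per kilobase of exon, Nectin2 in NaJa-D DMSO day 1 (54.7 ± 5.98, SD, n = 3) and Ceacam1 (32.8 ± 2.03) stood highest of the 10 in that group. In NaJa-G DMSO day 1 Havcr2 led with 27.4 ± 0.374, followed by Pvr (14.3 ± 0.807), Ceacam1 (13.6 ± 1.00) and Nectin2 (12.4 ± 1.70). Pdcd1lg2 was 10.2 ± 0.252 per kilobase in NaJa-G DMSO day 1, above Cd274 (1.80 ± 0.219) in the same libraries. In NaJa-D DMSO day 1 the levels of Pdcd1lg2 (1.20 ± 0.188) and Cd274 (1.05 ± 0.0740) were close. Mean C4bp and Mr1 were lowest in NaJa-G DMSO day 5 (0.00227 CPM per kilobase) and NaJa-F DMSO day 1 (0.00925), respectively.

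Averaged over the days, the DMSO levels of 7 of the 10 genes were called different for NaJa-F against NaJa-D, where 61.6% of all genes were, of 7 for NaJa-G against NaJa-D (67.4% of all genes) and of 8 for NaJa-G against NaJa-F (54.4%). Beside such shares, these counts are not read as a result about the 10 genes as a set. In NaJa-G, Pdcd1lg2 stood 7.30-fold above NaJa-D (log2 fold change 2.87 ± 0.11, adjusted p = 1.15e-19) and 3.30-fold above NaJa-F, which itself stood 2.21-fold above NaJa-D. Havcr2 followed the same order, with log2 fold changes of 0.95, 0.58 and 0.36. Nectin2 ran the other way and was highest in NaJa-D, with NaJa-G 4.63-fold lower (adjusted p = 4.94e-20) and NaJa-F 1.94-fold lower. Lgals9 was highest in NaJa-F, 3.24-fold above NaJa-D (adjusted p = 2.01e-19) and 3.26-fold above NaJa-G (adjusted p = 1.24e-19). Compared with NaJa-D, both NaJa-F and NaJa-G had less Ceacam1, Pvr and Cd47, by 1.10 and 0.91, 0.48 and 0.40, and 0.69 and 0.21 on the log2 scale. Cd274 in NaJa-G exceeded both NaJa-D (0.69) and NaJa-F (0.48). On day 5 alone the Cd274 difference between NaJa-G and NaJa-F was 0.05 and was not called, and on day 1 alone neither the Havcr2 difference between NaJa-F and NaJa-D (0.19) nor the Ceacam1 difference between NaJa-G and NaJa-F (0.04) was called. The Cd47 call between NaJa-G and NaJa-D was lost without NaJa-G DMSO day 5 replicate 3 (-0.16) and on day 5 alone (-0.12). Mr1 was higher in NaJa-G than in NaJa-F (1.24), a call lost without NaJa-G DMSO day 5 replicate 3 (1.07), without NaJa-F DMSO day 5 replicate 2 (1.09) and on day 5 alone (0.63). Without the library of conflicting label the Pdcd1lg2 values were 2.90 (NaJa-G against NaJa-D) and 1.15 (NaJa-F against NaJa-D), and Mr1 became called between NaJa-G and NaJa-D (1.41).

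**Figure D3:**
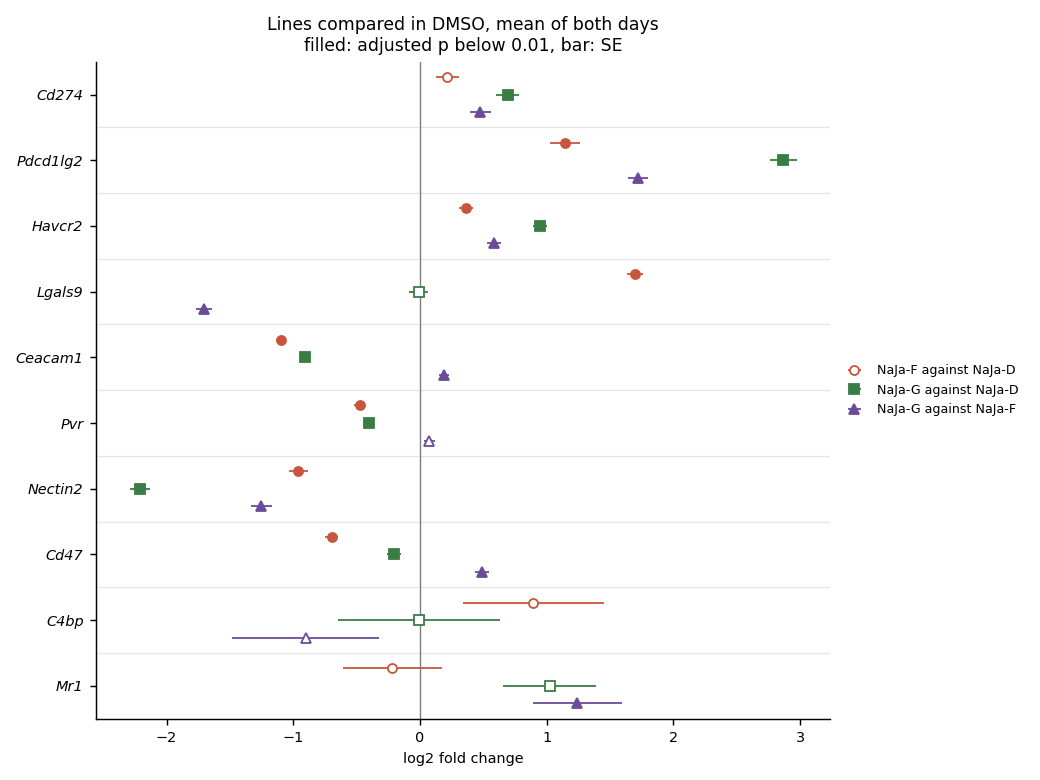
Log2 fold change between the DMSO controls of the lines, averaged over the days (x axis), for the 10 genes (y axis), with bars of 1 SE and filled symbols for an adjusted p below 0.01. Pdcd1lg2 reached 2.87 and Nectin2 -2.21 for NaJa-G against NaJa-D, and Lgals9 lay at 1.69 for NaJa-F against NaJa-D.

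Time in culture without inhibitor also moved several of the genes. From day 1 to day 5 in DMSO, 4 of the 10 were called in each line, where the share of all genes was 29.0% (NaJa-D), 16.7% (NaJa-F) and 34.1% (NaJa-G). Havcr2 fell in all 3 lines, by 0.85 ± 0.08 (NaJa-D), 0.51 ± 0.07 (NaJa-F) and 0.75 ± 0.08 (NaJa-G), with adjusted p = 2.28e-09, 6.67e-06 and 7.76e-09. Pdcd1lg2 fell in NaJa-G by 1.23 ± 0.09 (adjusted p = 2.23e-11) and in NaJa-D by 0.79 ± 0.20 (adjusted p = 0.00180), the latter lost without NaJa-D DMSO day 1 replicate 1 or day 5 replicate 3 (-0.72 in both). Ceacam1 rose in NaJa-F (0.59 ± 0.06, adjusted p = 6.49e-09) and NaJa-G (0.89 ± 0.06, adjusted p = 5.22e-12). Cd274 was called higher in NaJa-F (0.43) and lower in NaJa-G (-0.43), but these calls were lost in 5 of 6 and 2 of 5 fits that left out 1 library of the groups (0.35 to 0.55 and -0.54 to -0.33). Pvr was called lower in NaJa-D (-0.23) and NaJa-F (-0.21), lost in 3 and in all 6 of 6 such fits (-0.28 to -0.18 and -0.24 to -0.15). Mr1 was called higher in NaJa-D (2.10), a value that was 1.02 without NaJa-D DMSO day 1 replicate 1, which had no count, and 2.86 without the library of conflicting label.

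The responses of the lines to encorafenib were then compared directly. At day 1, the response of 2 of the 10 genes was called different for NaJa-F against NaJa-D (8.79% of all genes), of 6 for NaJa-G against NaJa-D (36.4%) and of 5 for NaJa-G against NaJa-F (33.5%). At day 5 the numbers were 4 (8.85% of all genes), 5 (21.9%) and 2 (24.2%), where the 5 include C4bp and Mr1 and the 2 include Mr1, which the filter on low values admitted through NaJa-G encorafenib day 5. The fall of Havcr2 at day 1 of NaJa-G was deeper than that of NaJa-D by 1.65 ± 0.11 (adjusted p = 3.35e-12), and the rise of Lgals9 was larger by 1.61 ± 0.13 (adjusted p = 3.50e-11). At day 5 the Lgals9 rise in NaJa-G exceeded that in NaJa-F by 2.49 ± 0.12 (adjusted p = 5.61e-15) and that in NaJa-D by 1.84 ± 0.13 (adjusted p = 9.55e-12). For Nectin2 and Pdcd1lg2 no difference of the responses between lines was called.

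Between days, the response of 1 of the 10 genes differed in NaJa-D (7.29% of all genes), of 3 in NaJa-F (5.88%) and of 7 in NaJa-G (31.7%), C4bp and Mr1 among the 7 with the same limit. Pdcd1lg2 and Havcr2 parted over time in NaJa-G: the fall of Pdcd1lg2 was deeper at day 5 by 1.74 ± 0.24 (adjusted p = 1.48e-06), and the value of Havcr2 was higher at day 5 by 1.43 ± 0.12 (adjusted p = 7.32e-11). Between day 1 and day 5 the mean of Havcr2 in NaJa-G went from 74.5 to 44.9 CPM in DMSO and from 12.8 to 20.3 CPM with encorafenib. Ceacam1 had a lower response at day 5 in all 3 lines, by 0.66 (NaJa-D), 0.37 (NaJa-F) and 0.62 (NaJa-G), but its treated level fell only in NaJa-D. There the mean went from 190 to 212 CPM in DMSO and from 224 to 158 CPM with encorafenib. In NaJa-F it rose from 76.2 to 115 CPM in DMSO and from 113 to 133 CPM with encorafenib. The NaJa-G means rose from 78.7 to 145 CPM and from 153 to 184 CPM, in the same order.

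**Figure D4:**
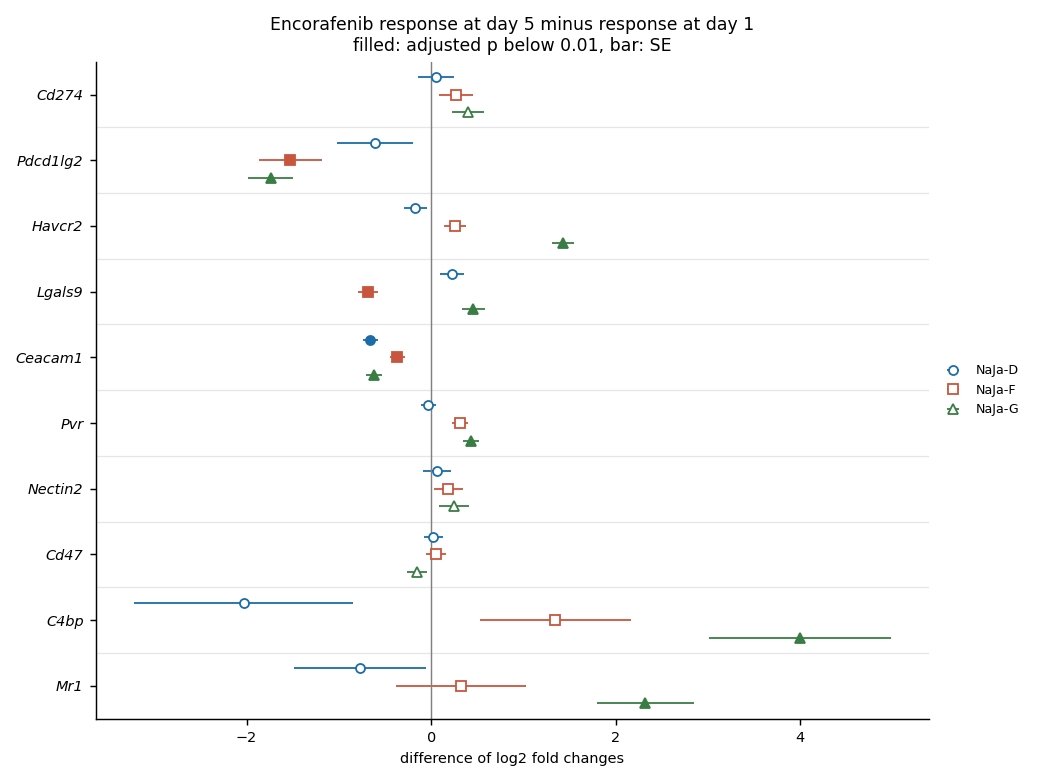
Encorafenib log2 fold change at day 5 minus that at day 1 (x axis) for the 10 genes (y axis) in each line, with bars of 1 SE and filled symbols for an adjusted p below 0.01. In NaJa-G, Pdcd1lg2 lies at -1.74 and Havcr2 at 1.43.

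Genes that work with the 10 were counted from 9 lists, beside 9.70% to 35.3% of all genes higher and 8.50% to 28.7% lower over the 6 comparisons. The lists are small, and nothing is read from a count near these shares. Of 6 measured B7 and TNF family ligands, 2 to 4 were higher and 0 to 2 lower with encorafenib in each comparison. Vtcn1, which encodes the B7 family inhibitor B7-H4, rose in all 6, most in NaJa-G day 1 (3.80, adjusted p = 1.46e-21), and Vsir, which encodes VISTA, rose in 3 (2.69 in NaJa-G day 1, adjusted p = 1.46e-12). The Vsir call in NaJa-F day 1 (1.38, adjusted p = 0.00976) was close to the threshold and rests on few counts. Its means there were 0.101 CPM in DMSO and 0.301 CPM with encorafenib. Of 7 nectins and partners of TIGIT, CD96 and TIM-3, 1 to 3 were higher and 2 to 4 lower. Nectin4 rose in all 6 (0.96 to 2.38) and the adhesion gene Cadm1 fell in all 6 (-1.68 to -0.74). Of 6 genes around CD47 and engulfment, 1 to 3 were higher and 1 to 3 lower. Stc1, a secreted glycoprotein gene, fell in all 6 (-4.94 to -3.70), and Thbs1, which encodes the CD47 ligand thrombospondin-1, rose in all 6 (0.61 to 2.68).

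Of 8 complement genes, 3 were higher in 5 comparisons and 6 in NaJa-G day 5, with 0 to 2 lower. C1ra and C1s1 encode the C1r and C1s proteases of the classical pathway that C4b-binding protein restrains. C1ra rose in all 6 (1.15 to 4.57) and C1s1 in 5, up to 5.82 in NaJa-G day 5 (adjusted p = 2.43e-13). All 19 listed regulators of PD-L1 and PD-L2 were measured, and 3 to 13 were higher and 2 to 4 lower. Among them the AP-1 gene Fosl1 fell in all 6 (-3.15 to -0.45). Of 10 MR1 partners and class Ib molecules, 5 to 8 were higher and 0 to 2 lower. The peptide loading gene Tapbp (0.90 to 2.37) and the class Ib gene H2-T23 (0.69 to 2.49) rose in all 6.

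Of 9 measured genes from a list of TGF-beta and other secreted factors, 2 to 5 were higher and 2 to 3 lower. Both Tgfb2 (0.88 to 4.01) and Il18 (2.25 to 7.65) rose in all 6. The paper counts IL18 among inflammatory proteins, so its rise is not read as suppressive. Mean Il18 was 0.0489 to 0.194 CPM in DMSO groups and 0.623 to 9.385 CPM in encorafenib groups. It entered the table through encorafenib groups, so its values are descriptions and not tests. Of 3 measured genes from a list of adenosine, prostaglandin and amino acid enzymes, 1 at most was higher and 0 to 2 lower. The amino acid enzyme genes Ido1, Tdo2, Arg1 and Arg2 had no row. Ptges, for prostaglandin E synthase, fell in 5 comparisons, and Nt5e, for the adenosine-forming enzyme CD73, fell in NaJa-G day 5 (-0.70, adjusted p = 1.43e-05). Among the receptors that the ligands address, Havcr2 and Tigit were measured, while Pdcd1, Cd226, Cd96 and Sirpa had no row. Tigit, the receptor gene for Pvr and Nectin2 and a member of the list of nectins and partners, is named here after its values were seen. Its mean level was 79.6 (NaJa-D), 78.8 (NaJa-F) and 106 CPM (NaJa-G) in DMSO day 1 and 38.3, 46.5 and 56.8 CPM with encorafenib. At day 5 the means were, in the same order, 113, 92.9 and 91.6 CPM in DMSO and 56.8, 64.8 and 41.4 CPM with encorafenib. Tigit fell in all 6 comparisons (-1.15 to -0.52), with adjusted p between 4.84e-13 and 7.40e-06. A separate list of 10 further lymphocyte checkpoint receptors had Cd28 and Cd244a in the table, and not Ctla4 or Lag3. Cd28, a costimulatory receptor gene, was called higher in NaJa-D day 1 (2.17) and lower in NaJa-F day 5, NaJa-G day 1 and NaJa-G day 5 (-1.50, -2.12 and -1.77). The NaJa-D day 1 means were 0.0307 CPM in DMSO and 0.186 CPM with encorafenib, so this call rests on few counts. Its DMSO group holds the library of conflicting label, and no value without that library is given. The NaJa-F day 5 means were 0.501 and 0.193 CPM. Cd244a, which encodes the NK cell receptor 2B4, was called higher in NaJa-F day 1 and NaJa-G day 1 (1.80 and 3.33) and lower in NaJa-F day 5 (-2.64).

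Over the 12 group means of log2 CPM, among 12650 other genes with a mean of at least 1 CPM, the patterns most like Pdcd1lg2 were those of Me2, Gm14066 and Fat2 (Pearson correlations of 0.960, 0.957 and 0.957). For Havcr2 they were Rfwd3, Ipo4 and Slc39a14 (0.979, 0.971 and 0.966), for Lgals9 Arf2, Tubb2b and Rnf141 (0.985, 0.977 and 0.974), and for Nectin2 Tmem120b, Vsig10 and Slc7a4 (0.993, 0.989 and 0.989). Cd274 had the loosest match, with Tent4b (0.891), Tada1 (0.883) and Ssb (0.871). For Ceacam1 they were Dpy19l4, Tmem30a and Rreb1 (0.972, 0.954 and 0.938), for Pvr Pnpla7, Fam160a2 and Il18bp (0.958, 0.956 and 0.955), and for Cd47 Fzd7, Fut11 and Gm26813 (0.952, 0.929 and 0.921). The faint genes C4bp and Mr1 came closest to Myrf, Mum1l1 and Pde8a (0.931, 0.922 and 0.922) and to Ddr2, Cnn1 and Klhl13 (0.953, 0.941 and 0.929). Within the 10, Lgals9 and C4bp correlated at 0.86, Pdcd1lg2 and Havcr2 at 0.79, and Pdcd1lg2 and Nectin2 at -0.75 over the 12 groups, which share lines and days.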

How the data were processed

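RNA from NaJa-D, NaJa-F and NaJa-G cells treated with encorafenib or DMSO was sequenced by the authors, whose notes name Trimmomatic 0.39 and STAR 2.5.2b and the build GRCm38. What was deposited are unnormalized read counts for each gene. The counter, annotation release and use of strand are not given in the sources used here. The 34 libraries were grouped by their titles, and no column was left unmapped.

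Counts were fitted in R 4.3.3 with limma 3.58.1 (voom weights, TMM scaling from edgeR 4.0.16), with 1 mean for each of 12 groups and Benjamini-Hochberg adjustment over all 14107 genes, two-sided, at an adjusted p below 0.01. The study's methods name limma, TMM and this threshold, and voom was chosen here. CPM use TMM factors, and correlations use log2 CPM with a prior count of 2. Positions come from GENCODE M21 and promoter letters from RefSeq. The members and lists were chosen with earlier results of these data known. The text names all 10 members, from each list the 2 called genes whose mean log2 change over the 6 encorafenib comparisons was largest in absolute value (1 of these genes is not reported here), 3 ERK targets, and the 3 genes most similar to each member. Alternatives were edgeR, DESeq2 1.42.0, limma-trend (prior count 3), filterByExpr, other scalings, a replicate block, only the groups compared, either day alone and leaving out each library. The procedure was tested on simulated data.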

Additional observations from a re-analysis of the deposited data

Results flagged for a closer look

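The response to encorafenib differed between lines or between days, by the test of the difference itself in limma, in the following cases, given as differences of log2 fold changes. Each had an adjusted p below 0.01, which for C4bp and Mr1 in NaJa-G day 5 is no test.

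For Cd274, the day 1 response of NaJa-G differed from that of NaJa-D by -0.87 and from that of NaJa-F by -0.74. For Havcr2 the same differences were -1.65 and -1.56, and the response of NaJa-G at day 5 was 1.43 above that at day 1. For Pdcd1lg2, the response at day 5 differed from that at day 1 by -1.53 in NaJa-F and by -1.74 in NaJa-G, and the NaJa-F call was lost without NaJa-F encorafenib day 5 replicate 2 (-1.12).

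For Lgals9, NaJa-G exceeded NaJa-D by 1.61 and NaJa-F by 1.35 at day 1, and by 1.84 and 2.49 at day 5, and the day 5 difference of NaJa-F against NaJa-D was -0.65. Its response changed from day 1 to day 5 by -0.68 in NaJa-F and by 0.46 in NaJa-G, the latter lost in 4 of 11 fits that left out 1 library (0.30 to 0.63; NaJa-G DMSO day 1 replicate 1 and day 5 replicate 1, encorafenib day 1 replicate 2 and day 5 replicate 1).

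For Ceacam1, NaJa-F against NaJa-D gave 0.33 at day 1 and 0.63 at day 5, NaJa-G against NaJa-D gave 0.72 and 0.76, and NaJa-G against NaJa-F gave 0.39 at day 1. Its response changed between days by -0.66 in NaJa-D, by -0.37 in NaJa-F and by -0.62 in NaJa-G. The NaJa-F against NaJa-D call at day 1 was lost without NaJa-F encorafenib replicate 1 or 2, NaJa-D DMSO replicate 2 or NaJa-D encorafenib replicate 1 (0.32 in each), and the NaJa-F call between days without NaJa-F encorafenib day 1 replicate 1 or day 5 replicate 2 (-0.35 in both).

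For Pvr, NaJa-G against NaJa-D gave -0.48 and against NaJa-F -0.28 at day 1, the latter lost in 8 fits that left out 1 library (-0.33 to -0.24 over all such fits), and the response of NaJa-G rose between days by 0.43. For Cd47, NaJa-F against NaJa-D gave 0.40 at day 1 and 0.43 at day 5, and NaJa-G against NaJa-D gave 0.57 and 0.39. The Cd47 calls of NaJa-F against NaJa-D were lost in 7 fits at day 1 (0.33 to 0.50 over all), the library of conflicting label among them (0.37), and in 7 at day 5 (0.38 to 0.50), and that of NaJa-G against NaJa-D at day 5 in 5 (0.30 to 0.48).

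For C4bp at day 5, NaJa-F against NaJa-D gave 4.13 and NaJa-G against NaJa-D 7.48, and the response of NaJa-G changed between days by 4.0. The first was lost in 6 fits (2.79 to 5.18 over all), with 2.79 without NaJa-F DMSO day 5 replicate 1, and the last without NaJa-G DMSO day 5 replicate 1 (4.13) or 3 (3.86). For Mr1 at day 5, NaJa-G exceeded NaJa-D by 2.94 and NaJa-F by 2.17, the latter lost in 8 fits (1.86 to 2.53 over all), and the NaJa-G response changed between days by 2.32. Both genes entered the table only through NaJa-G encorafenib day 5, so the values that involve it are no tests, although they passed the threshold. All these values rest on few counts in DMSO and depend on the prior count.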

How the results depend on the processing

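Of 210 values (10 genes in 21 comparisons), 111 were called, and none of these changed sign under any alternative run. Outside the leave-one-out fits, 40 alternative values of called results missed the threshold, 18 of them in fits of only the groups compared and 9 with scaling by library size only, and 25 values that were not called passed it, among them Pdcd1lg2 in the response of NaJa-G against NaJa-D at day 5 with 4 alternatives. The cause was not tested. filterByExpr kept all 14107 genes and changed nothing. Scaling by library size only moved the median of all genes by 0.18 (time in DMSO, NaJa-D), 0.12 (NaJa-F against NaJa-D), 0.12 (NaJa-G against NaJa-D) and -0.13 (response of NaJa-G against NaJa-D at day 1). Replicate numbers did not pair the libraries (correlations of deviations from -0.16 to 0.21), and with the replicate block 2 called values missed the threshold, 2 others passed it and no count of calls moved by over 1.5 times.

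The number of the 10 genes called moved by over 1.5 times with only the groups compared, which leaves fewer libraries to estimate the spread, to 3 for encorafenib in NaJa-D day 1, 2 for time in DMSO in NaJa-D, 0 and 3 for the day 1 responses of NaJa-F against NaJa-D and NaJa-G against NaJa-F, and 1 for the day 5 response of NaJa-G against NaJa-F. The last was 4 with edgeR and 5 with DESeq2, and library size only gave 0 for the day 1 response of NaJa-F against NaJa-D. Leaving out 1 library gave 4 to 7 for encorafenib in NaJa-F day 1, 2 to 4 and 2 to 3 for time in DMSO in NaJa-D and NaJa-F, 0 to 3, 2 to 4 and 1 to 2 for the responses of NaJa-F against NaJa-D at day 1 and day 5 and NaJa-G against NaJa-F at day 5, and 1 to 3 for the response over days in NaJa-F.

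All sign changes were among the 99 values that were not called. A pair of lines named alone stands for their levels in DMSO, and time for day 5 against day 1 in DMSO. Values of opposite sign on day 1 alone were Cd274 -0.14 (NaJa-F against NaJa-D), Pvr -0.0675 (NaJa-G against NaJa-F), C4bp 1.41 (NaJa-G against NaJa-D) and Mr1 0.57 (NaJa-F against NaJa-D). Values of opposite sign with library size only were Cd274 -0.011 (response over days in NaJa-D), Lgals9 0.11 (NaJa-G against NaJa-D), Lgals9 0.0142 (time in NaJa-D), Pvr 0.0674 (encorafenib in NaJa-D day 1), Nectin2 0.0247 (time in NaJa-G), Nectin2 -0.0209 (response of NaJa-G against NaJa-D day 1), Nectin2 -0.0087 (response over days in NaJa-D), Cd47 0.12 (time in NaJa-D), Cd47 -0.0443 (response over days in NaJa-D) and C4bp 0.11 (NaJa-G against NaJa-D). Values of opposite sign on day 5 alone were Lgals9 0.19 (NaJa-G against NaJa-D), C4bp -0.29 (NaJa-F against NaJa-D) and Mr1 -0.37 (NaJa-G against NaJa-D). The value of opposite sign with only the groups compared was Pvr 0.0161 (response of NaJa-G against NaJa-D day 5). Values of opposite sign with limma-trend were C4bp 0.0734 (NaJa-G against NaJa-D), Mr1 0.0046 (response of NaJa-F against NaJa-D day 1) and Mr1 0.36 (response of NaJa-G against NaJa-D day 1). The value of opposite sign with RLE scaling was C4bp 0.004 (NaJa-G against NaJa-D). The value of opposite sign with the replicate block was C4bp 0.0017 (NaJa-G against NaJa-D). Values of opposite sign with edgeR were Mr1 0.093 (response of NaJa-F against NaJa-D day 1) and Mr1 0.19 (response of NaJa-G against NaJa-D day 1). Values of opposite sign with DESeq2 were Mr1 0.11 (response of NaJa-F against NaJa-D day 1) and Mr1 0.20 (response of NaJa-G against NaJa-D day 1).

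Leaving out 1 library changed the sign of 31 of them. Cd274 ranged over -0.14 to 0.0723 (encorafenib in NaJa-F day 5), -0.21 to 0.0097 (response of NaJa-F against NaJa-D day 1), -0.0148 to 0.19 (response of NaJa-F against NaJa-D day 5) and -0.0332 to 0.15 (response over days in NaJa-D). Pdcd1lg2 ranged over -0.32 to 0.19 (response of NaJa-G against NaJa-D day 1). Havcr2 ranged over -0.28 to 0.17 (response of NaJa-G against NaJa-D day 5). Lgals9 ranged over -0.0956 to 0.0686 (NaJa-G against NaJa-D) and -0.0011 to 0.0742 (time in NaJa-F). Pvr ranged over -0.0818 to 0.0164 (encorafenib in NaJa-D day 1), -0.0912 to 0.0114 (encorafenib in NaJa-D day 5), -0.17 to 0.041 (encorafenib in NaJa-G day 5), -0.0325 to 0.18 (time in NaJa-G), -0.13 to 0.0833 (response of NaJa-G against NaJa-D day 5) and -0.0792 to 0.0282 (response over days in NaJa-D). Nectin2 ranged over -0.22 to 0.13 (time in NaJa-G), -0.15 to 0.0866 (response of NaJa-F against NaJa-D day 1), -0.084 to 0.22 (response of NaJa-F against NaJa-D day 5) and -0.0276 to 0.20 (response over days in NaJa-D). Cd47 ranged over -0.15 to 0.0055 (time in NaJa-D), -0.0204 to 0.0431 (time in NaJa-F), -0.13 to 0.0509 (response of NaJa-G against NaJa-F day 5), -0.0512 to 0.12 (response over days in NaJa-D) and -0.0002 to 0.0948 (response over days in NaJa-F). C4bp ranged over -1.37 to 0.0145 (encorafenib in NaJa-D day 5), -0.36 to 0.23 (NaJa-G against NaJa-D) and -0.0042 to 2.39 (response over days in NaJa-F). Mr1 ranged over -0.76 to 0.15 (NaJa-F against NaJa-D), -1.07 to 0.76 (response of NaJa-F against NaJa-D day 1), -0.87 to 0.95 (response of NaJa-G against NaJa-D day 1), -1.53 to 0.31 (response over days in NaJa-D) and -0.0135 to 0.54 (response over days in NaJa-F). The few counts of C4bp and Mr1 limit every value given for them in DMSO.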
